A study of Homo sapiens with 4 samples.

Results

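The genes described here encode the machinery that copies DNA and the enzymes that supply its building blocks. They are 43 genes, chosen by symbol from what their products do: the origin recognition complex, the licensing factors, the MCM helicase and its activators, the replicative polymerases, the clamp and its loader, and 5 enzymes of deoxynucleotide synthesis. Earlier results of these data were known when the genes were chosen. All 43 stood among the 46427 rows of the deposited count sheets, and all 43 were among the 16738 genes with enough reads to be tested. H1944 is an established human lung cancer cell line. In the control group it was exposed to the vehicle DMSO, and in the other group to BAY1217389, an inhibitor of the mitotic kinase MPS1, which the gene TTK encodes. Exposure lasted 48 h in both groups, the medium was then exchanged, and RNA was collected 24 h later; all cells grew in the same serum-containing RPMI medium. Each group had 2 libraries, labelled as biological replicates. The dose is not given in the sources used here, and both groups come from a single cell line. The series was made to look for negative regulators of the STING pathway.

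Chromosomes are copied in a fixed order of steps. The origin recognition complex marks start sites, CDC6 and CDT1 load the ring-shaped MCM helicase there in G1, and geminin, encoded by GMNN, holds CDT1 in check once S phase has begun. CDC45 and the GINS complex then turn the loaded ring into an active helicase, polymerase alpha lays down primers, polymerases delta and epsilon extend them on the sliding clamp PCNA, and ribonucleotide reductase, thymidylate synthase, thymidine kinase and dUTPase keep the deoxynucleotide pools in order. Most of these genes are textbook targets of the E2F transcription factors and are transcribed most strongly in dividing cells around the start of S phase.

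Depth was 39332931 and 38904473 reads for DMSO and 43661342 and 43067647 reads for BAY1217389, so both treated libraries were the deeper ones. Levels are in CPM, a gene's reads divided by the library's total, corrected by its TMM factor and set to a common scale. Fold changes are on the log2 scale, BAY1217389 minus DMSO, with the standard error (SE) of the model, and a gene is called changed at an adjusted p under 0.05 in edgeR's quasi-likelihood test, adjusted by Benjamini-Hochberg over all genes tested. Nothing but the label says that the libraries of a group came from separate cultures, so the p-values measure the spread between these libraries. Epithelial markers were present in part: KRT8, KRT18 and KRT7 were abundant, CDH1 and CLDN4 were present, EPCAM lay at 2.19 CPM in the DMSO libraries and KRT19 had 0 reads in all libraries. Summed epithelial markers went from 4161 and 4166 CPM in DMSO to 4844 and 5002 CPM after BAY1217389. For other cell types, summed markers ran from 1.47 to 2.92 CPM for immune cells and from 0.787 to 1.93 CPM for endothelial cells. They ran from 18.9 to 28.4 CPM for fibroblasts, and were higher after BAY1217389 in each case. In these lists 2 of 5 immune, 1 of 3 endothelial and 2 of 4 fibroblast markers had enough reads to be tested, PTPRC had 0 reads throughout, and their part in the results was not tested. TTK had 19.4 and 19.2 CPM in DMSO and 12.1 and 11.5 CPM after BAY1217389 (log2 fold change -0.71, SE 0.0891).

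Replication genes were modestly lower after BAY1217389. Of the 43 genes, 20 were called lower, 0 were called higher and 23 did not pass, so 46.5% were lower. Of all genes tested, 13.3% were called lower, 14.5% higher and 27.8% in either direction. The list was made with earlier results of these data known, and the difference between the shares was not tested. Nor were the shares compared among genes with like numbers of reads. The median log2 fold change was -0.16, beside a median near 0 (0.0011) over all genes tested, and the falls were small: 11 of the 20 were lower by at least 0.25 and 1, PRIM1, by at least 0.5 on the log2 scale. Both BAY1217389 libraries lay below both DMSO libraries for 33 of the genes and above them for 3, while 7 overlapped. Over all genes tested, 30.5% lay below and 30.5% above by that rule. Summed over the genes, levels were 2040.5 and 2041.3 CPM with DMSO and 1826 and 1828 CPM with BAY1217389, which is 10.5% less. In RNA from whole cultures, fewer cells that express a gene and less of its RNA per cell cannot be told apart. DESeq2 called 12 of the genes lower, and 1400 genes lower in all. Between 14 and 16 were called when 1 library was left out, and 10 were called lower in all 12 alternative analyses: CDT1, PRIM1, POLD2, RFC5, LIG1, RRM1, RRM2, TK1, TYMS and DUT.

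**Figure D1:**
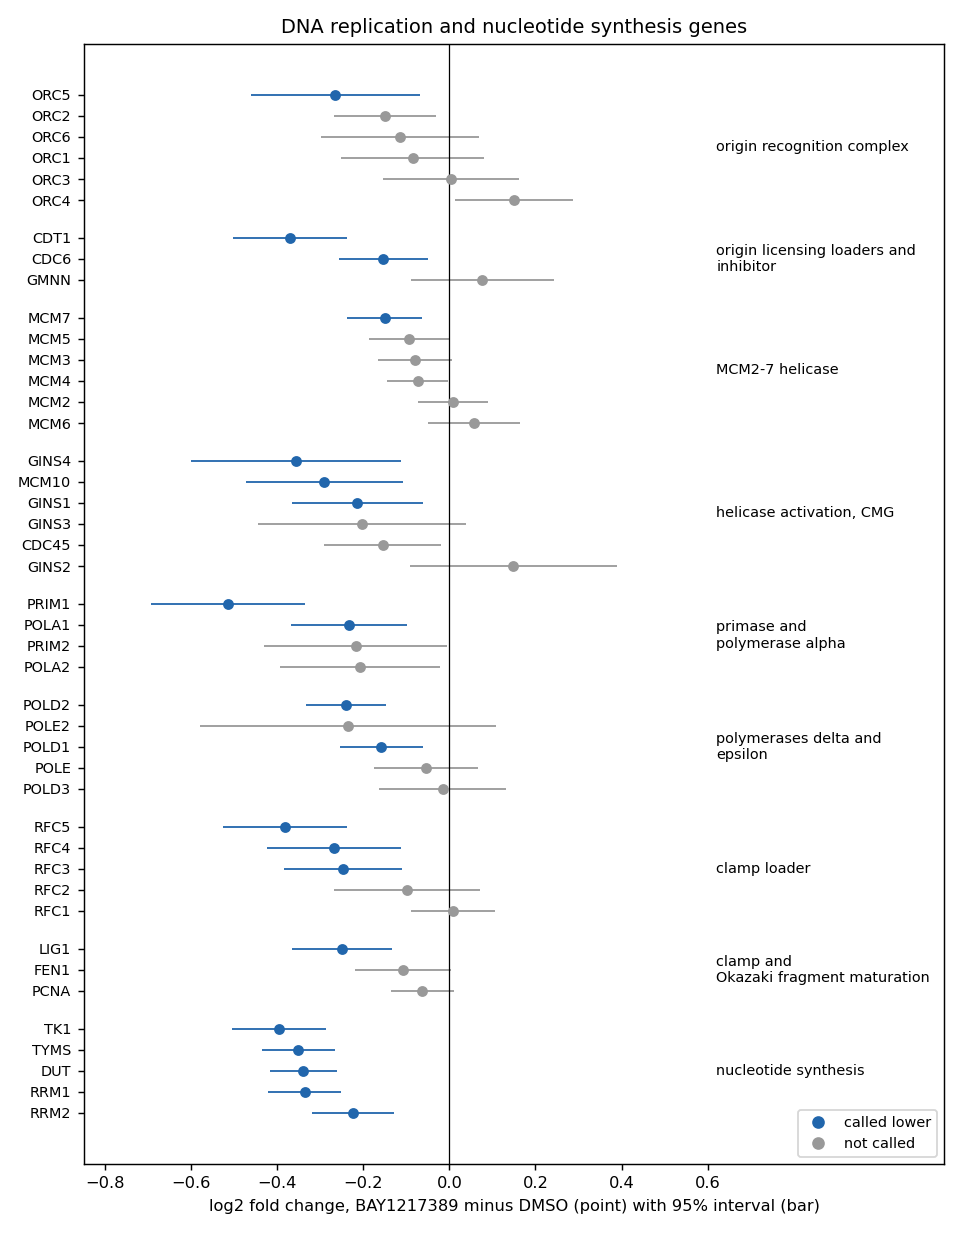
Log2 fold change of each of the 43 genes (horizontal axis, BAY1217389 minus DMSO, point with 95% interval), grouped by role on the vertical axis. All 5 nucleotide synthesis genes lie below 0 and are called lower, while 1 of the 6 genes MCM2 to MCM7 is called.

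All 5 genes of deoxynucleotide synthesis among the 43 fell, with log2 fold changes from -0.40 for TK1 to -0.22 for RRM2. All were called lower, as were 13.3% of all genes tested. Ribonucleotide reductase, which makes deoxynucleotides from ribonucleotides, has a large subunit encoded by RRM1 and a small subunit encoded by RRM2 or RRM2B. RRM2B, which is not among the 43 genes, had 173 and 174 CPM with DMSO and 182 and 180 CPM with BAY1217389. It did not pass (log2 fold change 0.06, edgeR adjusted p = 0.172). RRM1 had 97.0 and 93.3 CPM with DMSO and 76.4 and 74.2 CPM with BAY1217389 (log2 fold change -0.34, SE 0.042, edgeR adjusted p = 6.43e-08). RRM2 went from 67.5 and 67.3 CPM to 56.8 and 58.6 CPM (log2 fold change -0.22, SE 0.0467, edgeR adjusted p = 2.85e-04). For RRM1 and RRM2 the groups were well apart, with the libraries of a group close to each other. TYMS, which makes thymidylate from deoxyuridylate, stood at 110.4 and 121 CPM in DMSO and at 91.6 and 89.5 CPM after BAY1217389 (log2 fold change -0.35, SE 0.0418, edgeR adjusted p = 3.4e-08). DUT encodes the dUTPase that keeps uracil out of DNA, and it had 118 and 119 CPM against 94.98 and 92.4 CPM (log2 fold change -0.34, SE 0.0384, edgeR adjusted p = 8.35e-09). TK1, the thymidine kinase of dividing cells, showed the largest fall of the 5, from 52.3 and 52.8 CPM to 39.0 and 40.9 CPM (log2 fold change -0.40, SE 0.0535, edgeR adjusted p = 2.96e-07). In none of the 5 did a BAY1217389 library reach the level of a DMSO library, which also held for 30.5% of all genes tested. TYMS lies across from ENOSF1 on the other strand, and whether counting used strand is not given in the sources used here. DUT has 8 pseudogenes named after it in GENCODE 29, RRM2 has 3 and TYMS has 2, with which reads could be shared.

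**Figure D2:**
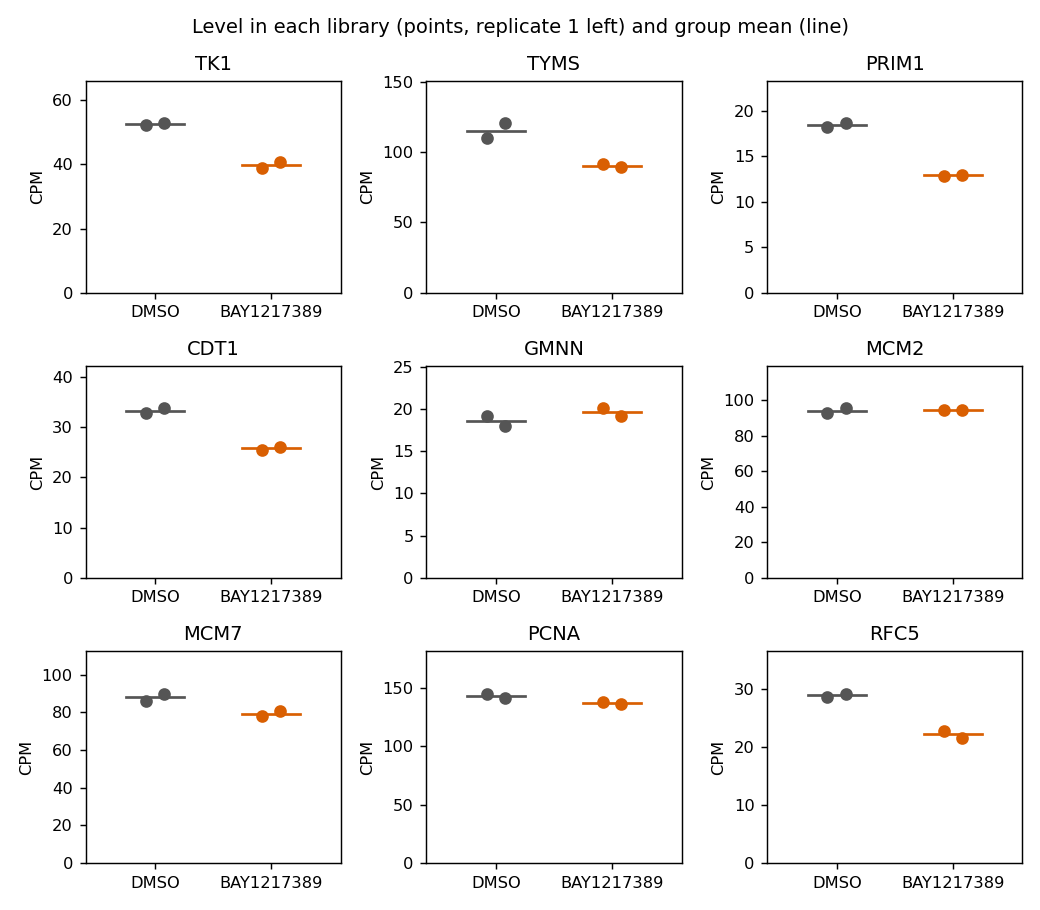
CPM (vertical axis, starting at 0) of 9 genes in each library (points) with the group mean (line), DMSO on the left and BAY1217389 on the right of each panel. TK1, TYMS, PRIM1, CDT1, MCM7 and RFC5 separate by group, PCNA does so by a few CPM, and GMNN and MCM2 overlap.

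Among the licensing factors, the loader genes fell and the inhibitor did not pass the test. CDT1, which brings MCM rings to origins, went from 32.9 and 33.7 CPM to 25.5 and 25.9 CPM (log2 fold change -0.37, SE 0.0652, edgeR adjusted p = 2.81e-05). CDC6, the ATPase that loads the rings with it, had 56.6 and 54.7 CPM in DMSO and 51.4 and 48.6 CPM after BAY1217389 (log2 fold change -0.15, SE 0.0511, edgeR adjusted p = 0.0217). The CDC6 call was lost with DESeq2, without DMSO replicate 1 and without BAY1217389 replicate 2, with adjusted p up to 0.189 over all alternatives. GMNN, the gene for geminin, had 19.2 and 18.0 CPM against 20.1 and 19.2 CPM, with overlapping libraries and a 95% interval of the log2 fold change from -0.09 to 0.24. Reads of CDT1 per read of GMNN were 1.71 and 1.87 in DMSO and 1.27 and 1.35 after BAY1217389. These ratios did not overlap, but with 2 libraries against 2 an exact two-sided permutation test cannot give a p below 0.333, which is the value found.

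RNA for the origin recognition complex showed little change. ORC5, an ATPase subunit, was the only called gene of the 6, with 14.3 and 14.4 CPM in DMSO and 11.2 and 12.6 CPM after BAY1217389 (log2 fold change -0.27, SE 0.0965, edgeR adjusted p = 0.0375). That call was lost with DESeq2, with no filter on low counts and in 3 of the 4 analyses that left out a library, with adjusted p up to 0.277 over all alternatives. ORC2 had 41.2 and 39.2 CPM against 36.8 and 35.7 CPM and just missed the threshold (log2 fold change -0.15, edgeR adjusted p = 0.0511). ORC4 had the highest fold change of all 43 genes, from 27.6 and 29.01 CPM to 32.86 and 29.997 CPM (log2 fold change 0.15, edgeR adjusted p = 0.0959), and it passed as higher without BAY1217389 replicate 2 and with only genes at 5 CPM in 2 libraries kept. It overlaps ACVR2A and MBD5 on the other strand. ORC1 (95% interval of the log2 fold change -0.25 to 0.08), ORC3 (-0.15 to 0.16) and ORC6 (-0.30 to 0.07) did not pass, and the libraries of ORC1 and ORC3 overlapped between groups.

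RNA for the subunits of the helicase ring was close to its control level. MCM2 to MCM7 form a hexamer that unwinds the parental strands, and MCM7 was the only called subunit, with 86.3 and 89.95 CPM in DMSO and 77.9 and 80.8 CPM after BAY1217389 (log2 fold change -0.15, SE 0.0425, edgeR adjusted p = 0.00664). Its call was lost without DMSO replicate 2 and without BAY1217389 replicate 1, with adjusted p up to 0.124. MCM2 had 92.9 and 95.4 CPM against 94.6 and 94.7 CPM with overlapping libraries and a 95% interval of the log2 fold change from -0.07 to 0.09. MCM6 had 46.5 and 46.9 CPM in DMSO and 47.8 and 49.4 CPM after BAY1217389, with an interval from -0.05 to 0.16. MCM3 (log2 fold change -0.08), MCM4 (-0.07) and MCM5 (-0.09) were lower in both treated libraries than in both controls without passing the test. Of all genes tested, 30.5% had both treated libraries below both controls. On the other strand, MCM2 overlaps TPRA1 (4949 and 5102 reads in DMSO, 6495 and 6534 after BAY1217389). MCM7 overlaps AP4M1 there (280 and 254 reads in DMSO, 248 and 217 after BAY1217389). These overlaps limit the counts of MCM2 and MCM7 if strand was not used.

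The genes that activate the ring and travel with it were mixed. MCM10, which helps to start unwinding, went from 18.5 and 18.9 CPM to 16.5 and 14.0 CPM (log2 fold change -0.29, SE 0.0895, edgeR adjusted p = 0.013). GINS1 had 24.9 and 24.2 CPM in DMSO and 21.8 and 20.6 CPM after BAY1217389 (log2 fold change -0.21, SE 0.0749, edgeR adjusted p = 0.0292), and GINS4, from the same 4-subunit complex, had 9.09 and 8.81 CPM against 7.32 and 6.66 CPM (log2 fold change -0.36, SE 0.12, edgeR adjusted p = 0.0234). All 3 calls were lost with DESeq2 and when single libraries were left out, in 2 of 4 such analyses for MCM10 and in 3 of 4 for GINS1 and for GINS4. The other GINS genes did not pass: GINS3 lay at -0.20 and GINS2, which overlaps GSE1 on the other strand, at 0.15 on the log2 scale. CDC45, which joins MCM and GINS in the active helicase, had 29.9 and 30.8 CPM in DMSO and 26.5 and 28.0 CPM after BAY1217389 (log2 fold change -0.16, edgeR adjusted p = 0.0808).

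PRIM1 showed the largest fall of all 43 genes. It encodes the catalytic subunit of primase, which writes the RNA primer, and it went from 18.2 and 18.6 CPM to 12.8 and 13.0 CPM (log2 fold change -0.51, SE 0.0881, edgeR adjusted p = 1.9e-05), a fall that stayed between -0.53 and -0.50 over the 12 alternatives. Its exons overlap those of the abundant gene NACA in GENCODE 29, so its count carries some doubt. POLA1, the catalytic subunit of polymerase alpha, had 33.7 and 31.4 CPM in DMSO and 27.1 and 28.2 CPM after BAY1217389 (log2 fold change -0.23, SE 0.0658, edgeR adjusted p = 0.00667), a call lost with DESeq2, without DMSO replicate 1 and without BAY1217389 replicate 1. The accessory subunits had fold changes of like size without passing, PRIM2 at -0.22 and POLA2 at -0.21, and POLA2 passed without DMSO replicate 2. POLA2 had 19.7 and 16.4 CPM in DMSO and 15.5 and 15.8 CPM after BAY1217389 (SE 0.0914, edgeR adjusted p = 0.0916). Its log2 fold change ran from -0.34 to -0.07 when 1 library was left out. For each of these 4 genes both BAY1217389 libraries were below both DMSO libraries, as for 30.5% of all genes tested.

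Of the 5 subunits of polymerases delta and epsilon among these genes, POLD1 and POLD2 fell. POLD1, the catalytic subunit of delta, the main polymerase of the lagging strand, went from 69.4 and 74.0 CPM to 62.1 and 66.4 CPM (log2 fold change -0.16, SE 0.0476, edgeR adjusted p = 0.0111), a call lost with DESeq2, without DMSO replicate 2 and without BAY1217389 replicate 1. POLD2, its second subunit, had 78.0 and 74.8 CPM against 63.2 and 66.2 CPM (log2 fold change -0.24, SE 0.0455, edgeR adjusted p = 8.51e-05). POLD3 had overlapping libraries and an interval from -0.16 to 0.13. POLE, the catalytic subunit of epsilon, the main polymerase of the leading strand, had 36.3 and 36.7 CPM in DMSO and 34.2 and 36.1 CPM after BAY1217389 (95% interval of the log2 fold change -0.18 to 0.07). POLE2 was among the lowest genes at 4.57 and 4.32 CPM against 3.95 and 3.60 CPM, and its interval, -0.58 to 0.11, is too wide to tell a fall like that of POLD2 from no change. Among the accessory subunits on the list of partners, POLE3 of epsilon was called lower (log2 fold change -0.12, edgeR adjusted p = 0.0402), while POLE4 (0.05) and POLD4 of delta (0.15) did not pass. Whether the 2 polymerases differ from each other was not tested.

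Of the clamp loader's 5 subunits, RFC3, RFC4 and RFC5 fell, and the small subunit RFC2 and the large subunit RFC1 did not pass. Replication factor C opens the PCNA ring and closes it around primed DNA. RFC5 had 28.5 and 29.1 CPM in DMSO and 22.7 and 21.5 CPM after BAY1217389 (log2 fold change -0.38, SE 0.071, edgeR adjusted p = 6.58e-05). RFC4 went from 23.9 and 23.6 CPM to 19.1 and 20.4 CPM (log2 fold change -0.27, SE 0.0766, edgeR adjusted p = 0.00758) and RFC3 from 30.8 and 29.6 CPM to 25.7 and 25.3 CPM (log2 fold change -0.25, SE 0.0673, edgeR adjusted p = 0.00506). The RFC4 call was lost with DESeq2 and without BAY1217389 replicate 1, and the RFC3 call without DMSO replicate 1. RFC1, the large subunit, had 62.7 and 67.4 CPM against 67.0 and 63.8 CPM, and RFC2 had 22.3 and 19.1 CPM against 19.9 and 18.8 CPM. Both had libraries that overlapped between groups, with 95% intervals from -0.09 to 0.11 and from -0.27 to 0.07 on the log2 scale. RFC5 shares exon sequence with WSB2 and RFC4 with EIF4A2 on the other strand.

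PCNA itself, the ring that holds polymerases on DNA, had 145 and 141 CPM in DMSO and 137 and 136 CPM after BAY1217389 and did not pass (log2 fold change -0.06, 95% interval -0.14 to 0.01). FEN1, which trims the flaps between Okazaki fragments, had 44.1 and 45.3 CPM against 41.0 and 41.9 CPM (log2 fold change -0.11, edgeR adjusted p = 0.145). LIG1, the ligase that seals those fragments, fell from 42.0 and 42.2 CPM to 35.8 and 35.0 CPM (log2 fold change -0.25, SE 0.0572, edgeR adjusted p = 9.12e-04). The treated libraries were the lower ones for all 3 genes, as for 30.5% of all genes tested. PCNA has 3 pseudogenes named after it, and FEN1 shares exon sequence with FADS2 and TMEM258.

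Levels also differed widely between genes when set per kilobase of transcript, using the longest principal transcript of GENCODE 29. PCNA was the highest at 105 CPM per kb in the DMSO libraries, followed by TYMS at 69.5 and DUT at 55.2 CPM per kb. GINS4 was the lowest at 2.33 CPM per kb, next to POLE2 at 2.50 CPM per kb. The subunits of the MCM ring, which are present in equal number in the protein, ran from 12.5 CPM per kb for MCM6 to 38.7 CPM per kb for MCM4. Primase subunits were likewise unequal, with PRIM1 at 13.2 and PRIM2 at 4.94 CPM per kb in DMSO, and after BAY1217389 at 9.25 and 4.25 CPM per kb. These levels depend on the transcript chosen for the length.

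**Figure D3:**
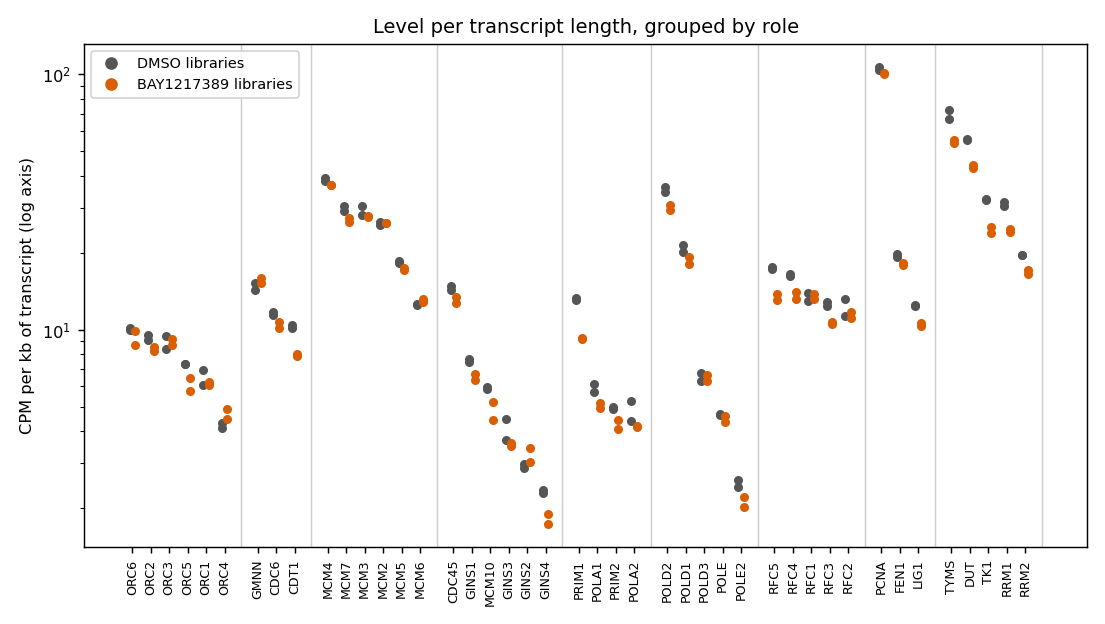
CPM per kb of principal transcript (vertical log axis) of each of the 43 genes (horizontal axis, by role and falling level) in the 2 DMSO and 2 BAY1217389 libraries (points). PCNA is the highest at about 105 CPM per kb and GINS4 the lowest at about 2.33 CPM per kb in DMSO.

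Promoters were read to see what the genes share in sequence. RefSeq windows on GRCh38.p14, from 250 bases before to 50 bases after a start, were matched by symbol for 39 of the 43 genes (all but MCM4, MCM5, GINS4 and POLD3), with 53 windows in all. Searched on both strands were an E2F-type group of words (the word TTTCGCG, the word TTTGGCG and the word TTTCCCG) and the word CCAAT. A CHR-type group, known from promoters of mitotic genes, was made of the word TTTGAA and the word TTCGAA. E2F-type and CHR-type words can overlap CCAAT or each other, and each was counted on its own. An E2F-type word stood in 45.3% of the windows of these genes, in 10.15% of the windows of all genes tested and in 7.21% of all 35116 windows. Counted by gene, 23 of 39 genes (58.97%) had such a word in some window. The same held for 13.53% of tested genes with windows and for 8.665% of all genes with windows. The 23 were 10 of the 19 called lower and 13 of the 20 that did not pass. CCAAT stood in 52.8% of their windows, in 34.6% of those of all genes tested and in 34.6% of all windows. CHR-type words stood in 5.66% of their windows, in 12.1% of those of all genes tested and in 16.4% of all windows. Of the 21 mitotic genes listed for comparison, 16 had windows, 18 in all, of which 72.2% held a CHR-type word, 88.9% held CCAAT and 27.8% an E2F-type word. Median GC content was 65.0% in the windows of the replication genes and 60.5% in those of the mitotic genes. A match is a run of letters and does not show that a factor binds there.

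The stretches below show E2F-type words beside genes that fell and genes that did not, and a mitotic promoter that also holds such a word. Capitals mark any word searched for, 5′ to 3′ on the gene's own strand. CDT1 (chr16:88803746-88803775, plus strand) and TYMS (chr18:657606-657635, plus strand) fell, and PCNA (chr20:5126660-5126689, minus strand) did not pass.
CDT1: gggcgcccgCGGGAAATTTGGCGggaaccg
TYMS: ggacggccgCGGGAAAaggcgcgcggaagg
PCNA: cgtcaggggCGGGAAAaggcgtgcgtttca
TYMS and PCNA carry the same word, CGGGAAA, the reverse complement of TTTCCCG, and CDT1 carries it directly beside TTTGGCG. The 120 bases before the start of MCM6 (chr2:135876444-135876563, minus strand), which did not pass, hold TTTGGCG overlapped by CGCGAAA between copies of ATTGG, the reverse complement of CCAAT.
MCM6: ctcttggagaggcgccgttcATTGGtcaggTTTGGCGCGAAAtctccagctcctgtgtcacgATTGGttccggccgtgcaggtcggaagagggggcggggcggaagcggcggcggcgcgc
The same length before the start of RRM1 (chr11:4094565-4094684, plus strand), which fell, holds CCAAT and no E2F-type word.
RRM1: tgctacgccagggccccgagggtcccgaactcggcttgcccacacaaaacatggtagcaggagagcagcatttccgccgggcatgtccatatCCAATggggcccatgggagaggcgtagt
MKI67 (chr10:128126424-128126543, minus strand), a marker of dividing cells and no replication enzyme, holds 2 copies of TTTGAA together with CCAAT and TTTCCCG words. In this it is not typical of the mitotic list, where no other stretch of 120 bases before a start held an E2F-type word.
MKI67: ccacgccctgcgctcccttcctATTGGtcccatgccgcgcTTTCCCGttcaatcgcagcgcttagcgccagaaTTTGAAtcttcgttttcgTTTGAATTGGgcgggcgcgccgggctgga

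Mitotic genes, listed for comparison, were lower by more. This list too was made with earlier results of these data known. All 21 were called lower, beside 13.3% of all genes tested, and the median log2 fold change was -0.76. NUSAP1 fell least, at -0.42. Of the 43 replication and nucleotide genes, 1, PRIM1, lay below that value. TOP2A, which untangles copied DNA, went from 224 and 220.4 CPM to 126 and 121 CPM (log2 fold change -0.84, SE 0.035). PLK1, AURKA and CCNB1, 2 mitotic kinases and a cyclin, had log2 fold changes of -1.05, -0.79 and -0.93. The difference between the 2 lists was not tested.

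**Figure D4:**
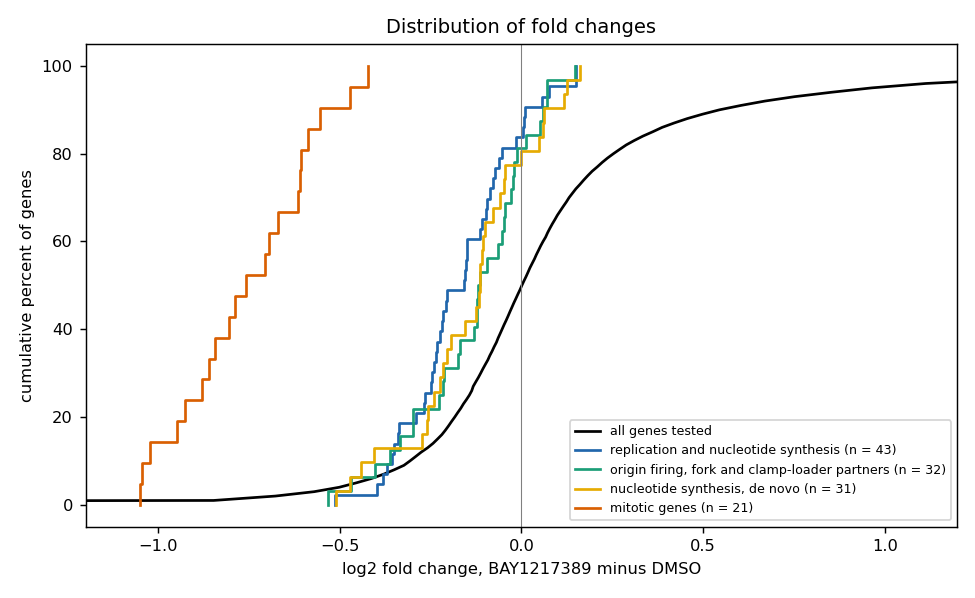
Cumulative percent of genes (vertical axis) by log2 fold change (horizontal axis, BAY1217389 minus DMSO) for all genes tested and for 4 lists. The replication and nucleotide synthesis genes have a median of -0.16, to the left of all genes tested, and the mitotic genes have a median of -0.76.

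Some partners of the replication machinery outside the 43 genes were also lower. Of 32 origin-firing, fork and clamp-loader partners, 10 were called lower, 0 were called higher and the other 22 did not pass, beside 13.3% lower and 14.5% higher over all genes tested; the median log2 fold change was -0.12. TICRR, which brings CDC45 to origins, went from 16.3 and 15.02 CPM to 10.2 and 11.4 CPM (log2 fold change -0.53, SE 0.0975). WDHD1, which ties polymerase alpha to the helicase, had a log2 fold change of -0.40, RECQL4, a helicase needed for origin firing, -0.30, and RPA1, which coats single-stranded DNA, -0.21. With BAY1217389 replicate 1 left out, 5 of these partners were called lower, and with DESeq2 6 were. Among 18 G1/S regulators, 6 were lower and 2, CCND1 (0.36) and CDK6 (0.31), were higher, beside the same shares over all genes. CCNA2, the cyclin of S phase and G2, had a log2 fold change of -0.79, and CDK4, partner of the D-type cyclins, -0.24. Of the E2F factors on that list and their partner TFDP1, named after their values were seen, E2F2 (log2 fold change -0.35) and TFDP1 (-0.15) were called lower, and E2F1 (-0.03), E2F3 (0.09), E2F7 (-0.15) and E2F8 (-0.32) did not pass.

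Other genes of nucleotide synthesis that passed the test were mostly lower. Of 31 other genes of nucleotide synthesis, 15 were called lower and 2 higher, where 13.3% of all genes tested were lower and 14.5% higher, and the median log2 fold change was -0.11. IMPDH2, which commits purines to guanine nucleotides, went from 285 and 282 CPM to 206 and 203 CPM (log2 fold change -0.47, SE 0.0311, edgeR adjusted p = 1.22e-14). SHMT2, the mitochondrial enzyme that feeds carbon into folates, and PAICS, a purine synthesis enzyme, had log2 fold changes of -0.22 and -0.24. CTPS1, which makes CTP, rose by 0.12, and GUK1, guanylate kinase, by 0.16 on the log2 scale. DESeq2 called 10 of this list lower and 0 higher, and 0 were higher without DMSO replicate 1 and 1 without DMSO replicate 2 or BAY1217389 replicate 2.

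Genes of salvage and breakdown went both ways, with a few large rises. Of 23 such genes, 7 were called higher and 5 lower, where 14.5% of all genes tested were higher and 13.3% lower, and the median log2 fold change was -0.05; 3 were called lower without DMSO replicate 2, without BAY1217389 replicate 2 or with DESeq2. CMPK2, an interferon-inducible nucleotide kinase of mitochondria, went from 2.46 and 2.61 CPM to 93.8 and 88.4 CPM (log2 fold change 5.17, SE 0.0797). SAMHD1, which breaks deoxynucleotides down and is also interferon-inducible, went from 12.5 and 11.9 CPM to 106 CPM in both BAY1217389 libraries (log2 fold change 3.12, SE 0.0564). TYMP, thymidine phosphorylase, went from 109.9 and 115 CPM to 210.4 and 209 CPM (log2 fold change 0.90), and NT5E, the cell-surface nucleotidase CD73, rose by 1.05 on the log2 scale. Among those lower were NT5C (-0.32), a deoxynucleotidase, DCK (-0.29), the deoxycytidine kinase, ADK (-0.20), adenosine kinase, and APRT (-0.12), which salvages adenine. SAMHD1 thus stood above the control level and RRM1 and RRM2 below it, while RRM2B did not pass (log2 fold change 0.06).

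**Figure D5:**
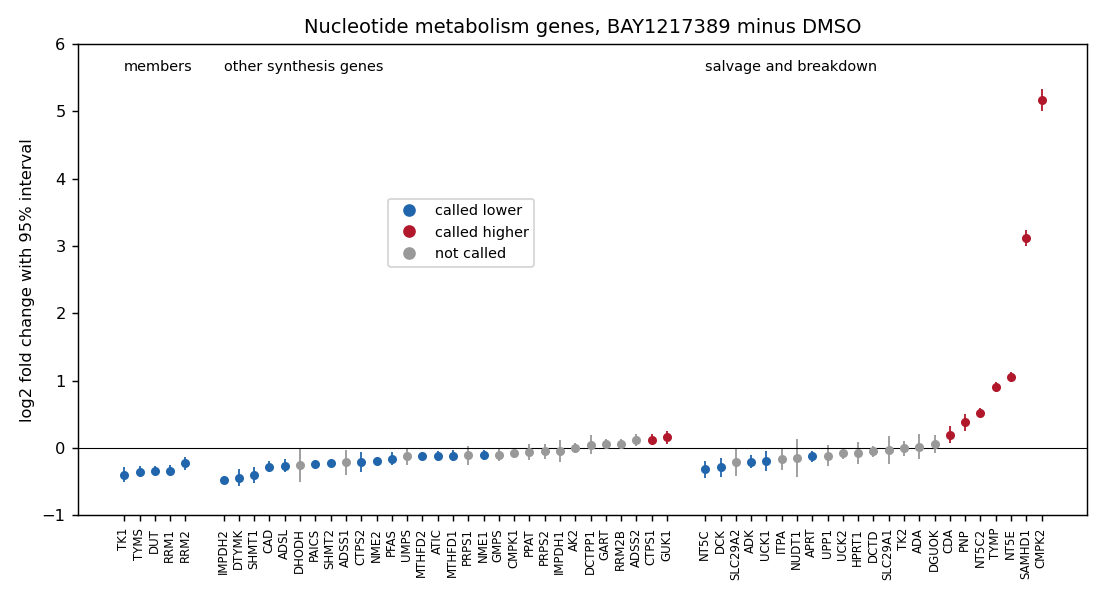
Log2 fold change with 95% interval (vertical axis, BAY1217389 minus DMSO) of the 5 nucleotide synthesis members, 30 of the 31 other synthesis genes and 23 salvage and breakdown genes (horizontal axis). CMPK2 (5.17) and SAMHD1 (3.12) stand far above the rest, and all 5 members lie below 0.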

How the data were processed

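Libraries came from a stranded mRNA kit (Illumina TruSeq), per the labels' protocols. The deposited sheets hold raw read counts, whole numbers for each gene, per the file headers. The submitters' processing notes name hg18, but the rows hold RefSeq identifiers issued later. Aligner, counter and strand setting: not given in the sources used here. Not used were 4 columns (16 counting repeats) of values that name other samples. Counts were fitted in R 4.3.3 with edgeR 4.0.16: filterByExpr (minimum count 10, minimum total 15), TMM factors, a quasi-likelihood fit on treatment alone, robust dispersions, two-sided tests and Benjamini-Hochberg adjustment over 16738 genes. Each gene had 2 residual degrees of freedom, to which the fit added 31.1 prior ones. Standard errors are the log2 fold change divided by the square root of F, and 95% intervals are unadjusted. Alternatives used DESeq2 1.42.0, limma 3.58.1, other scalings, other filters, thinning, the replicate number as a block and leaving out each library. Replicates were distinct libraries (chi-square per degree of freedom 3.74 for DMSO and 3.93 for BAY1217389).

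The members and lists were chosen with earlier results of these data known. All 43 members are named. Full values are given for the called member with the smallest p in each role, members that gain or lose a call when a library is left out, and the largest falls, and most others are given too. Of each other list, the 4 called genes with the smallest p and up to 4 called against the majority are named, except that 1 gene of the synthesis list is not reported here. Promoter sequences are from RefSeq, and transcript lengths, overlaps and pseudogenes are from GENCODE 29.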

Additional observations from a re-analysis of the deposited data

How the results depend on the processing

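Over 12 alternatives the median log2 fold change of the 43 genes lay between -0.19 and -0.14, and 19 to 21 of them were called lower with other scalings, other filters, limma-voom, thinning to equal depth or the block. DESeq2 called 12 of them, and 1400 genes lower in all; it also called 6 partners lower, 0 other synthesis genes higher and 3 salvage genes lower. Leaving out 1 library at a time gave 14 to 16 of the 43 lower and 0 to 1 higher, 5 to 9 partners lower and 0 to 1 higher, 10 to 14 other synthesis genes lower and 0 to 2 higher, and 3 to 6 salvage genes lower. With the filter at 5 CPM in 2 libraries, 1 of the 43, ORC4, and 1 partner were higher. With the replicate number as a block, 21 of the 43 were lower and 1 partner was higher. Same-numbered libraries shared almost no deviation (correlation of same-numbered deviations 0.044 over 16738 genes). Whether they were handled together is not given in the sources used here. Signs turned only for genes that did not pass: with library size alone for ORC3 (-0.0075), MCM2 (-0.0039) and RFC1 (-0.0033), with the stricter filter for POLD3 (0.0016), and with a library left out for ORC1 (-0.18 to 0.0093), MCM2 (-0.014 to 0.025), POLD3 (-0.069 to 0.036), RFC1 (-0.045 to 0.059), RFC2 (-0.21 to 0.015) and ORC3 (-0.077 to 0.085). The cause of these changes was not tested. With 2 libraries a group, precision is limited, and POLE2, which the 5 CPM filter left out, had the fewest reads.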
